A study of Mus musculus with 12 samples.

Results

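The genes described here encode matrix proteins and regulators of cartilage, leaving the collagens aside. They are the secreted matrix proteins Ucma, Chadl, Acan, Comp, Matn1, Matn3 and Hapln1, the membrane-anchored and secreted protein Cnmd, and the transcription factors Sox5 and Sox6. These 10 genes, of 36047 genes to which counts were summed, were chosen on their levels and fold changes in these same 12 libraries, with earlier results known. Their differences between conditions therefore describe these libraries and are no independent evidence. All 10 genes passed the filter on low counts that left 18780 genes to test.

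The study asked how FST, a secreted antagonist of Activins and related TGF-β-type ligands, and LIN28B, an RNA binding protein that blocks let-7 microRNA maturation, change cochlear supporting cells. RNA was sequenced from cochlear organoids, which are clusters that dissociated cochlear epithelial cells form in a drop of Matrigel. The cells came from 5-day-old mice and were expanded for 7 days with the growth factors EGF and FGF2, the Wnt agonist CHIR99021 and the histone deacetylase inhibitor VPA. There were 4 conditions with 3 libraries each. These came from different animals.

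Control organoids came from littermates that carry R26 rtTA-M2, the doxycycline-dependent activator expressed from the broadly active ROSA26 locus, with no inducible transgene. LIN28B organoids carried rtTA-M2 and Col1a1-TRE-LIN28B, FST organoids carried rtTA-M2 and TRE-FST-288, and FST+LIN28B organoids carried all of these. The transgenes encode the human proteins, and the medium of all 4 conditions, control included, held 0.5 μg/ml doxycycline. Animals of both sexes were used, and the activator is not restricted to a cell type.

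Cartilage matrix is a network of type II, IX and XI collagen fibrils that holds large proteoglycan aggregates. Aggrecan binds hyaluronan and link protein stabilizes that bond, while matrilins and COMP bridge the aggregates and the collagen fibrils. SOX9 drives this program together with SOX5 and SOX6, which share a DNA binding HMG box, have no transactivation domain of their own and help SOX9 to activate genes such as Col2a1 and Acan. In the inner ear, cartilage forms the otic capsule from mesenchyme around the otic epithelium. The epithelium itself expresses some of the same genes, type II collagen of the tectorial membrane among them.

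Levels are given as CPM, counts relative to library size scaled by TMM factors that remove differences in composition, and levels of different genes are compared as TPM, which also divides by transcript length. Log2 fold changes with their standard error (SE) are from edgeR's quasi-likelihood test in 1 fit of the 12 libraries, and a change was called where the Benjamini-Hochberg adjusted p over all genes tested was below 0.01. The libraries held 42.7 to 65.3 M estimated counts. FST replicate 2 stood apart. It had the lowest total, and 6.63% of its counts fell on transcripts annotated as retained introns, against 3.77% to 5.10% in the other libraries. As a check of the labels, Fst was at 116 to 817 CPM in the libraries labelled with FST and at 7.72 to 22.5 in the others, and Lin28b was at 187 to 480 CPM in those labelled with LIN28B and at 16.9 to 24.5 in the others. The lowest Fst level among libraries labelled with FST was in FST replicate 2, at 116 CPM against 445 and 326 in FST replicates 1 and 3.

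Markers of cochlear epithelium (Epcam, Cdh1, Krt8, Krt18 and Cldn6) summed to 1422 to 1980 CPM over the 12 libraries. Markers of osteoblasts and hypertrophic chondrocytes summed to only 3.87 to 8.87 CPM, and of those 6 genes none was at 0 in every library. The 8 markers of otic mesenchyme and fibroblasts summed to 42.6 to 49.8 CPM in control, 27.9 to 50.7 in FST, 47.8 to 69.9 with LIN28B alone and 22.5 to 34.95 in FST+LIN28B. Prrx1 made up 70.4% of that sum in control, and 5 of the 8 markers (Col1a1, Col1a2, Col3a1, Tbx18 and Pou3f4) had means below control in LIN28B, with none called. The 8 markers of cochlear supporting cells summed to 3410 to 3477 CPM in control and 3341 to 4303 in FST, and to 1421 to 1869 in LIN28B and 2060 to 2167 in FST+LIN28B. Most of that difference was Tecta, a tectorial membrane gene that averaged 1631 CPM in control, 281 in LIN28B and 314 in FST+LIN28B and was called lower in both, while Prox1 was called higher in LIN28B and Jag1 and Sox2 had means above control in FST+LIN28B.

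To show the sequence beside the expression values, promoters are given for the genes the results turn on most, which are Ucma and Chadl, whose changes were called, and Cnmd, the most abundant of the 10. Each is the 250 bases before the RefSeq transcription start on the gene's own strand, in build GRCm38.p6. Capitals mark the letters ACAAAG or ACAATG, which match the core bound by SOX proteins, and CAGAC, the SMAD box, searched on both strands. The motifs share no position in these promoters.

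Ucma promoter (chr2:4975872-4976121, plus strand): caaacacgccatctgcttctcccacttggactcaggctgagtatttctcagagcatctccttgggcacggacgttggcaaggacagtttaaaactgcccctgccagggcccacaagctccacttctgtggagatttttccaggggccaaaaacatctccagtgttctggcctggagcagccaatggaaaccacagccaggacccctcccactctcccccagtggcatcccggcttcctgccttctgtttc

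Chadl promoter (chr15:81697288-81697537, minus strand): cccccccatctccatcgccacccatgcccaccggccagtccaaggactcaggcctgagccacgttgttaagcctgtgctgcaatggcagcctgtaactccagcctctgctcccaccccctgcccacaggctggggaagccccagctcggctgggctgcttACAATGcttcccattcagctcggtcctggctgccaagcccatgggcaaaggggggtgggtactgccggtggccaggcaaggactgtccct

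Cnmd promoter (chr14:79662184-79662433, minus strand): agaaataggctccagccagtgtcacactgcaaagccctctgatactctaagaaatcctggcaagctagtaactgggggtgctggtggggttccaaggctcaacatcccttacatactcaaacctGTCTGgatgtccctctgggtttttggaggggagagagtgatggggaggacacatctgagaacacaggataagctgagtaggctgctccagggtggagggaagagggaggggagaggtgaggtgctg

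No letters of either motif stood in the Ucma window, 1 SOX match in Chadl and 1 SMAD match, on the opposite strand, in Cnmd. Of 32851 RefSeq promoter windows of this length, 25.2% held a SOX match and 42.2% a SMAD match. Promoters were listed for 9 of the 10 genes, Comp being the exception, and of these 9 genes 3 (Chadl, Sox5 and Sox6) had a SOX match and 6 had a SMAD match in at least one window. Counted by window, as the shares over all promoters are, 7 of the 14 windows of these genes held a SOX match and 7 a SMAD match. Sox6 alone had 6 of the 14 windows, and all but 1 of these held a SOX match. Outside Sox6, only the windows of Sox5 and Chadl held one, so the SOX count by window is mostly that of a single gene. A match is a description of the letters and no evidence of binding.

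The 10 genes spanned a wide range of levels. Cnmd, which encodes chondromodulin, a glycoprotein that inhibits blood vessel growth in cartilage, averaged 213 TPM over the 12 libraries and ranked above 97.7% of genes with a count. Sox5 followed at 22.6 TPM, Sox6 at 14.8, Chadl at 9.73 and Ucma at 1.89. Comp (0.307 TPM), Matn3 (0.271), Matn1 (0.222), Hapln1 (0.162) and Acan (0.028) were all below 1 TPM in every library. Neighbours in this order overlapped from library to library except for Cnmd, whose lowest library (86.2 TPM) was above the highest of Sox5 (43.0). The core proteoglycan and linker genes of hyaline cartilage were thus close to the detection limit, with 1 to 21 counts per library for Acan, 10 to 34 for Comp, 7 to 44 for Matn1, 8 to 65 for Matn3 and 12 to 86 for Hapln1.

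**Figure D1:**
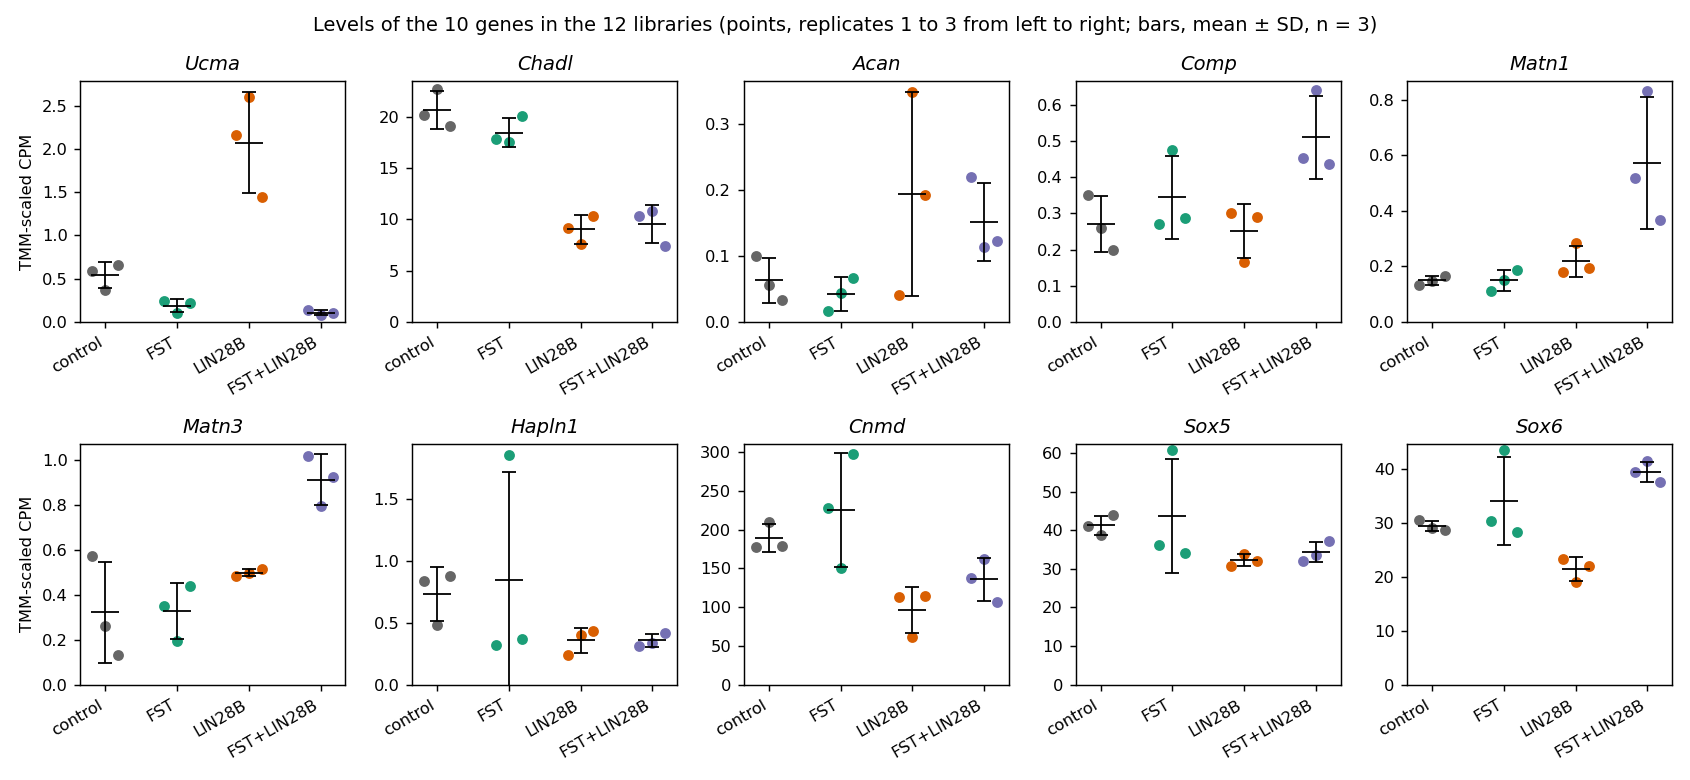
Levels of each of the 10 genes in TMM-scaled CPM (vertical axis, a separate scale per gene, starting at 0) in the 4 conditions. Points are libraries, in the order of replicates 1 to 3, and bars are the mean ± SD of n = 3, cut off at 0. Ucma is highest in the 3 LIN28B libraries, between 1.45 and 2.61 CPM, and lowest in the FST+LIN28B libraries, between 0.0756 and 0.141, while all LIN28B and FST+LIN28B libraries lie below all control libraries for Chadl.

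In LIN28B organoids, Ucma was higher and Chadl lower than in control, and none of the other 8 genes was called. This is 2 of 10 genes beside 3.43% of all genes tested (644 of 18780). In FST+LIN28B organoids, 1 of 10 genes was called against control, Chadl, which was lower, beside 1.26% of all genes (236). Between FST+LIN28B and LIN28B organoids 1 of 10 was called, Ucma, lower with FST, beside 0.506% (95). In FST organoids, 0 of 10 were called beside 0.0213% (4), and 0 of 10 in the interaction of FST and LIN28B (the joint response minus the sum of both single responses on the log2 scale), beside 0.00532% (1). At an unadjusted p under 0.05, edgeR gave 1 of 10 for FST against control, beside 702 of all 18780 genes, and 3 of 10 for the interaction, beside 672, and DESeq2 and limma called none in either. Because the genes were chosen with these contrasts in view, nothing is read from the difference between the shares. LIN28B, FST and FST+LIN28B were all compared with the same 3 control libraries.

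**Figure D2:**
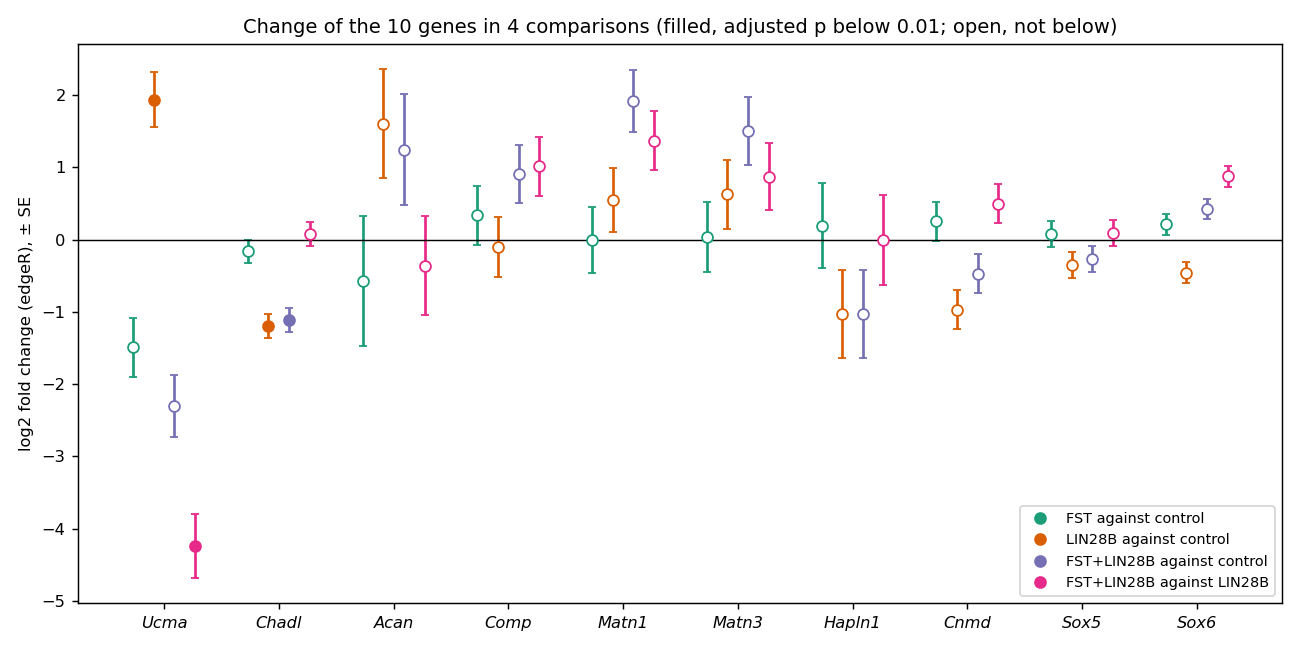
Log2 fold change of the 10 genes (edgeR, vertical axis) with its SE in FST, LIN28B and FST+LIN28B against control and in FST+LIN28B against LIN28B. Filled points had an adjusted p below 0.01 and open points did not; the 4 filled points are Ucma in LIN28B against control (1.93) and in FST+LIN28B against LIN28B (−4.24), and Chadl in LIN28B (−1.20) and FST+LIN28B (−1.12) against control.

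Ucma (chr2:4976122-4985748, plus strand, GRCm38) encodes a small, secreted, vitamin K-dependent protein of the upper growth plate and cartilage matrix. Control libraries 1, 2 and 3 held 0.587, 0.371 and 0.663 CPM of Ucma, and the FST libraries, in the same order, 0.239, 0.108 and 0.219. The LIN28B libraries held 2.16, 2.61 and 1.45 CPM, and those with both transgenes 0.141, 0.0756 and 0.105. The LIN28B libraries were above all others, the FST and FST+LIN28B libraries were all below the control libraries, and these last conditions overlapped with each other.

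With LIN28B alone, Ucma rose 3.84-fold in mean CPM over control, a log2 fold change of 1.93 (SE 0.38, edgeR adjusted p = 0.0086). In FST+LIN28B organoids Ucma was 19.4-fold lower in mean CPM than in LIN28B organoids, and it fell in this comparison by 4.24 on the log2 scale (SE 0.44, edgeR adjusted p = 0.00072), a call kept under all 24 alternatives tried (adjusted p 6.6e-14 with DESeq2 to 0.0062 with edgeR). Relative to control, the log2 fold change was −2.30 (SE 0.43, edgeR adjusted p = 0.0115) in FST+LIN28B and −1.49 (SE 0.41, edgeR adjusted p = 0.484) in FST. The interaction was −2.75 (SE 0.59, edgeR adjusted p = 0.333).

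These values rest on 95 counts in the 3 control libraries together (exact Poisson 95% interval 76.9 to 116), 33 in FST (22.7 to 46.3), 355 in LIN28B (319 to 394) and 19 in FST+LIN28B (11.4 to 29.7), intervals that cover counting error only. The call in LIN28B against control was lost without any 1 of the 3 control libraries, LIN28B replicate 1 or 2, or any 1 of the 3 FST+LIN28B libraries (edgeR adjusted p 0.0104 to 0.0513), and with library size alone, length-scaled counts or protein-coding transcripts only (up to 0.0145). It was also lost in a fit with a term for replicate number (edgeR adjusted p = 0.0171). Without FST replicate 2, the fall of Ucma in FST+LIN28B against control passed the threshold (edgeR adjusted p = 0.0032), as it did with DESeq2 (adjusted p = 0.00045). Of the mesenchymal markers summed above, only Prrx1 had the order of Ucma in LIN28B and FST+LIN28B (means of 32.4 CPM in control, 42.6 and 16.1), with no call. The collagens Col1a1, Col1a2 and Col3a1 did not. Scx, which the study used as a mesenchymal marker and which is listed below among the regulators, also had this order (12.3, 23.8 and 3.74 CPM). It was called lower in FST+LIN28B, against control and against LIN28B, and was not called in LIN28B against control. Pdgfra (2.39 CPM in control, 4.27 and 3.13) and Twist1 (3.33, 5.63 and 3.72) had means above control in both conditions, and Tbx18 and Pou3f4 below. The part of mesenchymal cells in the Ucma result was not tested. In bulk RNA, fewer cells of a type and less RNA per cell cannot be told apart.

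Chadl (chr15:81678296-81697287, minus strand) encodes a chondroadherin-like leucine-rich repeat protein that binds collagen in cartilage. The control libraries held 20.2, 22.7 and 19.1 CPM of Chadl and the FST libraries 17.8, 17.5 and 20.0. With LIN28B alone the values were 9.14, 7.56 and 10.4 CPM, and with both transgenes 10.4, 10.8 and 7.37. The 6 libraries with LIN28B were all below the 6 without it.

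In mean CPM, Chadl was 2.29-fold lower than control in LIN28B and 2.17-fold lower in FST+LIN28B. It fell by 1.20 (SE 0.16, edgeR adjusted p = 0.0013) and 1.12 (SE 0.16, edgeR adjusted p = 0.0031) on the log2 scale. Between FST+LIN28B and LIN28B the difference was 0.08 (SE 0.16, edgeR adjusted p = 1.00), and between FST and control −0.16 (SE 0.16, edgeR adjusted p = 1.00). The call in FST+LIN28B was lost without any 1 control library or without FST+LIN28B replicate 1 or 3 (edgeR adjusted p 0.0133 to 0.0239). It was also lost in a fit with a term for replicate number (edgeR adjusted p = 0.0117). The call in LIN28B was lost without control replicate 2 (edgeR adjusted p = 0.0105).

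Of the 8 markers of supporting cells, 7 had means below control in LIN28B and 5 in FST+LIN28B, Tecta being the one called lower, and their part in the Chadl result was not tested. Chadl shares 1023 exon bases with L3mbtl2, a Polycomb-related gene on the opposite strand, and the strand setting of the read assignment is not given in the sources used here, so reads from the shared bases may belong to either gene. L3mbtl2 averaged 53.5 ± 1.31 CPM in control, 52.7 ± 5.25 in LIN28B and 53.9 ± 7.55 in FST+LIN28B (SD, n = 3), and its log2 fold change in LIN28B was −0.02 (SE 0.11, edgeR adjusted p = 0.939). With protein-coding transcripts alone, Chadl fell by 1.35 in LIN28B and by 1.26 in FST+LIN28B.

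Cnmd (chr14:79637690-79662170, minus strand) measured 178, 209.7 and 179 CPM in the control libraries and 228, 150.0 and 297 in the FST libraries. With LIN28B alone it measured 113, 61.8 and 114 CPM, and with both transgenes 138, 163 and 107. The LIN28B and FST+LIN28B libraries lay below the control libraries, and the FST libraries spread on both sides of control, with FST replicate 2 the lowest of them. The log2 fold change was −0.97 (SE 0.27, edgeR adjusted p = 0.049) in LIN28B and −0.48 (SE 0.27, edgeR adjusted p = 0.459) in FST+LIN28B, neither past the threshold. DESeq2 called the difference in LIN28B (adjusted p = 0.0041).

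Among the regulators, Sox5 measured 41.2, 38.7 and 43.8 CPM in the control libraries and 36.2, 60.8 and 34.0 in the FST libraries. It measured 30.8, 34.0 and 32.1 CPM with LIN28B alone and 32.1, 33.5 and 37.3 with both transgenes. FST replicate 2 was the highest library, and the libraries with LIN28B were all below control, at log2 fold changes of −0.35 (SE 0.18, edgeR adjusted p = 0.294) and −0.27 (SE 0.18, edgeR adjusted p = 0.556). Without FST replicate 2, the log2 fold change of Sox5 in FST against control turned from 0.08 to −0.23 (edgeR adjusted p = 0.229).

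For Sox6, control libraries gave 30.5, 29.1 and 28.7 CPM and FST libraries 30.4, 43.5 and 28.3. Libraries with LIN28B alone gave 23.2, 19.1 and 22.1 CPM and those with both transgenes 39.4, 41.4 and 37.6. All LIN28B libraries were below all control libraries and all FST+LIN28B libraries above them. The log2 fold changes against control were −0.46 (SE 0.14, edgeR adjusted p = 0.077) in LIN28B and 0.42 (SE 0.14, edgeR adjusted p = 0.144) in FST+LIN28B. FST+LIN28B was above LIN28B by 0.88 (SE 0.14), with an edgeR adjusted p of 0.0102 that just missed the threshold. This difference was called by DESeq2 (8.5e-06), with no filter (0.0046), with only these conditions fitted (0.0070), without FST replicate 2 (0.00036) and without FST replicate 3 (0.00470). No other alternative called it at 0.01. Its adjusted p reached 0.0488 with edgeR without 1 library and 0.139 over all edgeR, DESeq2 and limma settings. The difference in LIN28B was called only without FST replicate 2 (0.0042).

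FST replicate 2 also differed in which SOX transcripts its counts fell on, and the part of its retained-intron share in these values was not tested. Of its Sox5 counts 59.0% fell on protein-coding transcripts, against 69.3% to 82.3% in the other 11 libraries, and of its Sox6 counts 79.6%, against 80.4% to 89.1%. In protein-coding transcripts alone, Sox5 was at 35.9 CPM in that library, against 23.4 to 30.9 in the others. Sox6 was at 34.6 CPM there, and at 32.1 to 34.8 in FST+LIN28B, so this library kept the highest Sox5 level and a Sox6 level within the FST+LIN28B range. Sox5 also shares 1330 exon bases with the antisense gene Sox5os1, for which no counts were analysed here.

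**Figure D3:**
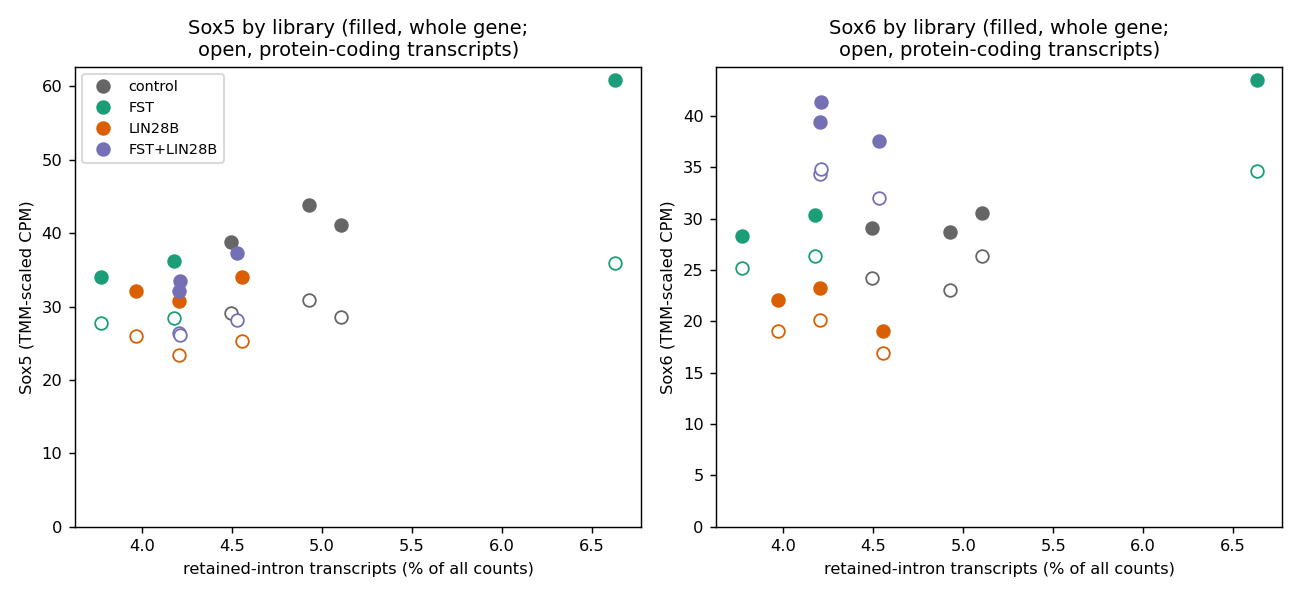
Sox5 (left) and Sox6 (right) in TMM-scaled CPM (vertical axes) against the percentage of each library's counts on retained-intron transcripts (horizontal axes). Filled points are the whole gene, open points its protein-coding transcripts, and colours the 4 conditions; FST replicate 2 lies apart at 6.63%, with 60.8 CPM of Sox5 in all and 35.9 on protein-coding transcripts.

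The aggregate genes were rare. Acan, the aggrecan core protein, had 6, 3 and 2 counts in the control libraries and 1, 2 and 4 in the FST libraries. LIN28B libraries had 2, 21 and 12 counts of Acan, and those with both transgenes 14, 6 and 7. Its LIN28B libraries ranged from the control level to the highest of all 12, and the log2 fold change of 1.60 had an SE of 0.75 (edgeR adjusted p = 0.237). Only LIN28B replicates 2 and 3 and FST+LIN28B replicate 1 held at least 10 counts of Acan. It thus passed the filter only through libraries with LIN28B, and its change in those libraries is no support for a difference. Hapln1, the link protein that holds aggrecan on hyaluronan, gave 0.838, 0.483 and 0.878 CPM in the control libraries and 0.319, 1.86 and 0.370 in the FST libraries. It gave 0.240, 0.399 and 0.434 CPM with LIN28B alone and 0.313, 0.340 and 0.418 with both transgenes. The libraries with LIN28B lay below the control libraries, at a log2 fold change of −1.03 (SE 0.61, edgeR adjusted p = 0.391) in LIN28B. Its FST level rested on replicate 2, without which the log2 fold change against control was −1.09 instead of 0.19 (edgeR adjusted p = 0.191).

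The bridging proteins shared a pattern of highest values in FST+LIN28B, with no call. Matn1, a matrilin of mature cartilage, had 33, 44 and 21 counts in the FST+LIN28B libraries, against 8, 8 and 10 in control, 7, 7 and 11 with FST and 9, 17 and 12 with LIN28B. Scaled to CPM, all FST+LIN28B libraries were above all others, at a log2 fold change of 1.92 over control (SE 0.43, edgeR adjusted p = 0.027). Among control and FST libraries, only control replicate 3 and FST replicate 3 held at least 10 counts of Matn1, too few for the filter. Matn1 thus passed it only through libraries with LIN28B, and its change in those libraries is no support for a difference. Matn3, a matrilin of developing cartilage, had 65, 42 and 53 counts in the FST+LIN28B libraries, against 34, 14 and 8 in control, 22, 9 and 26 with FST and 24, 30 and 32 with LIN28B. Scaled to CPM its FST+LIN28B libraries were also above all others, at a log2 fold change of 1.501 over control (SE 0.47, edgeR adjusted p = 0.113). Comp, a thrombospondin that binds collagen fibrils, had 29, 34 and 25 counts in the FST+LIN28B libraries, against 21, 14 and 12 in control, 17, 22 and 17 with FST and 15, 10 and 18 with LIN28B. Its log2 fold change was 0.91 (SE 0.40, edgeR adjusted p = 0.290), and its FST+LIN28B libraries overlapped FST replicate 2 when scaled (0.436 against 0.475 CPM). Hair cell and neuron markers were also high in FST+LIN28B. All 5 hair cell markers and all 5 neuron markers had means above control there, summing to 101 to 122 and 17.2 to 25.2 CPM, against 87.5 to 95.6 and 6.67 to 9.20 in control. In LIN28B they summed to 92.0 to 97.6 and 15.5 to 19.7 CPM, with 4 of 5 hair cell and all 5 neuron means above control. In FST, 5 hair cell and 2 neuron means were above control. Called higher were 2 hair cell and 2 neuron markers in LIN28B and 1 of each in FST+LIN28B. Myo6 made up 94.9% of the hair cell sum in control and averaged 87.0 CPM there and 92.2 in FST+LIN28B. The hair cell factors Atoh1 and Pou4f3 averaged 0.25 and 0.0688 CPM in control and 3.25 and 4.39 in FST+LIN28B, and the part of these cells in the matrilin and Comp values was not tested.

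Which transcript of a gene the counts fell on was not used to choose the genes. Transcripts were tested for usage with edgeR's diffSpliceDGE, which compares each transcript with the rest of its gene. The filter left 34 transcripts, of Ucma, Chadl, Cnmd, Sox5 and Sox6, and none of the other 5 genes was tested. Of these 34, 0 were called in LIN28B against control, beside 0.164% of 62970 transcripts (103), and 0 in FST+LIN28B against control, beside 0.141% (89). At an unadjusted p under 0.05 there was 1 in each, beside 1768 and 1732 of all transcripts, and it was Sox6-206 (edgeR adjusted p = 0.783 and 1.00), and no other tool was run on usage. Matn1, Matn3 and Hapln1 had all of their TPM on a single protein-coding transcript. Chadl-201, the protein-coding transcript of 2548 bases, held 69.3% to 91.1% of the Chadl TPM. Cnmd-201 and Cnmd-203 held 46.2% and 41.0% of the Cnmd TPM on average. Of Sox6 TPM, the 479-base processed transcript Sox6-208 held 35.2% and the 8668-base coding transcript Sox6-210 held 25.6%. Shares of Ucma transcripts rest on few counts and ranged from 0% to 100% for Ucma-204.

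Across the 12 libraries, the log2 CPM of Ucma and Sox6 were inversely related (Pearson r −0.91) and those of Chadl and Cnmd directly related (0.84). These coefficients describe libraries that share their condition, and FST replicate 2 changed neither (−0.92 and 0.86 without it). Hapln1 and Sox5 had an r of 0.96, or 0.88 without that library, and Comp and Sox6 0.83, or 0.81 without it. Profiles were compared with other tested genes, leaving out Gm, Rik, clone, accession and mitochondrial gene names. Among these, the profile most like Ucma was that of Cpxm1 (r 0.97) and Frmpd1 (0.97), and the one most like Chadl was that of Cpxm2 (0.99) and Chst15 (0.98). Cpxm1 and Cpxm2 encode carboxypeptidase-like proteins, and Chst15 a chondroitin sulfate sulfotransferase. Cpxm2 was at 279 to 357 CPM in control and 35.7 to 96.6 in LIN28B. The most similar genes were Ankmy2 and Sgsh for Cnmd (0.99 and 0.98), Pde9a and Lhx3 for Matn1 (0.96 and 0.94), Igdcc3 and Fblim1 for Sox6 (0.95 and 0.90), and Gpr171 and Sik2 for Sox5 (0.99 and 0.98). For the rare genes they were Tbxas1 and Nf1 for Hapln1 (0.99 and 0.98), Tfb1m and Cpd for Comp (0.94 and 0.87), Esrrb and Slfn2 for Acan (0.93 and 0.93), and Tbx3 and Raet1e for Matn3 (0.92 and 0.90).

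**Figure D4:**
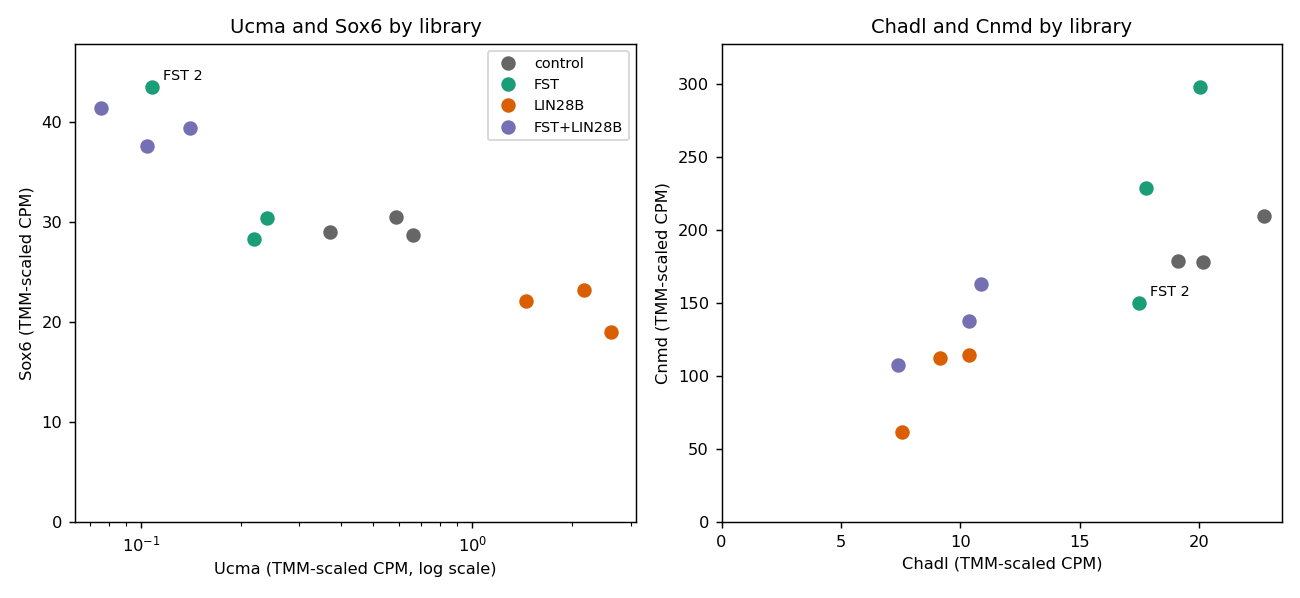
Sox6 against Ucma (left, horizontal axis on a log scale) and Cnmd against Chadl (right), both in TMM-scaled CPM, with 1 point for each of the 12 libraries, coloured by condition; FST 2 is FST replicate 2. The LIN28B libraries lie at high Ucma and low Sox6, the FST+LIN28B libraries at low Ucma and high Sox6, and the libraries with LIN28B at low Chadl.

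Among 32 related cartilage matrix genes, of which 25 were tested, 4 were called in LIN28B against control. Thbs1 and Thbs2, thrombospondins of the same family as Comp, rose by log2 fold changes of 1.37 (SE 0.13) and 1.97 (SE 0.36), while Mia, a secreted cartilage protein, and Prelp, a small leucine-rich proteoglycan, fell by 1.66 (SE 0.28) and 1.81 (SE 0.29), with edgeR adjusted p of 0.00011, 0.0062, 0.0048 and 0.0029. In FST+LIN28B against control 0 were called by edgeR (8 at an unadjusted p under 0.05; DESeq2 called 5 and limma 3), and against LIN28B 1, Thbs1, which fell by 0.94 (SE 0.12, edgeR adjusted p = 0.0024). The median log2 fold change of the list was 0.10 in LIN28B and −0.20 in FST+LIN28B, beside −0.03 and −0.01 over all genes. Thbs1 was at 180.3, 210.1 and 183 CPM in control, 485.5, 552 and 447 with LIN28B alone and 223, 287 and 263.5 with both transgenes, with no overlap between these conditions.

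Among other close relatives, edgeR called none of Vcan, Matn2, Matn4, Hapln3, Sox13 and Mgp against control. DESeq2 called Mgp (adjusted p = 0.0042 and 4.3e-08) and Matn2 (0.0046 and 0.0056) in LIN28B and FST+LIN28B, and without FST replicate 2 edgeR called Vcan in LIN28B (0.0088). Without 1 library, the edgeR adjusted p of Mgp in FST+LIN28B ranged from 0.0064 to 0.0695, so at least 1 such fit called it. Vcan, a large proteoglycan that binds hyaluronan as aggrecan does, averaged 267 CPM in control, 383 in LIN28B and 242 in FST+LIN28B. Matn2 averaged 11.5, 7.76 and 7.70 CPM and Matn4 3.50, 4.79 and 2.57 in the same conditions. Hapln3 stayed below 0.5 CPM in every library. Sox13, the third SOXD gene, averaged 42.7 CPM in control, 33.9 in LIN28B and 39.3 in FST+LIN28B, and Mgp, an inhibitor of matrix calcification that is also a Gla protein, 8.23, 2.20 and 0.804 (log2 fold change −3.36 in FST+LIN28B, SE 0.61, edgeR adjusted p = 0.0112).

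Of 25 chondrogenic regulators, 21 were tested. Sox9, the partner of Sox5 and Sox6, averaged 141 ± 21.5 CPM in control, 156 ± 28.6 in FST, 124 ± 8.71 with LIN28B alone and 159 ± 4.87 with both transgenes (SD, n = 3), with no call. Sox8 fell in LIN28B by 1.61 on the log2 scale (SE 0.25, edgeR adjusted p = 0.0021). Scx, a transcription factor of tendon and cartilage progenitors, fell in FST+LIN28B against control (−1.71, SE 0.25, edgeR adjusted p = 0.0031) and against LIN28B (−2.67, SE 0.26, edgeR adjusted p = 0.00046). No regulator was called in FST (2 at an unadjusted p under 0.05 by edgeR; DESeq2 called 1 and limma none).

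Of 20 genes of hyaluronan and chondroitin sulfate synthesis, all tested, Chst15 alone was called, lower in LIN28B (−1.04, SE 0.16, edgeR adjusted p = 0.0021) and in FST+LIN28B (−0.998, SE 0.16, edgeR adjusted p = 0.0052) against control. Of 7 genes of matrix cleavage, 5 were tested and Htra1, a secreted serine protease, was called. Htra1 was at 5.72, 3.88 and 3.88 CPM in control, 17.97, 16.03 and 15.85 with LIN28B alone, 0.894, 0.907 and 1.62 with FST alone and 0.971, 1.27 and 1.64 with both transgenes. It rose in LIN28B (1.89, SE 0.27, edgeR adjusted p = 0.0014) and fell in FST+LIN28B against control (−1.80, SE 0.27, edgeR adjusted p = 0.0039) and against LIN28B (−3.68, SE 0.29, edgeR adjusted p = 0.000155). Like Ucma, Htra1 was highest in the LIN28B libraries and lower than control in all FST and FST+LIN28B libraries.

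Of 8 cartilage collagens, all tested, those called were lower. In LIN28B against control 3 fell, Col2a1 by 1.07, Col11a2 by 2.26 and Col27a1 by 1.45 on the log2 scale, and in FST+LIN28B 4 fell, Col2a1 by 1.85, Col9a3 by 1.57, Col11a2 by 2.07 and Col27a1 by 0.99. Col2a1, the target of SOX9, SOX5 and SOX6, also fell in FST (−1.69, SE 0.19, edgeR adjusted p = 0.0064), and Col9a3 fell in FST+LIN28B against LIN28B (−1.499, SE 0.17, edgeR adjusted p = 0.0010). The median of the list was −0.82 in LIN28B and −0.87 in FST+LIN28B. Over the 24 alternatives, 9 of these 22 calls of genes outside the 10 were kept throughout, those of Thbs1, Col11a2 and Col27a1 in LIN28B, of Col2a1, Col9a3 and Col11a2 in FST+LIN28B, and of Htra1, Scx and Col9a3 in FST+LIN28B against LIN28B. The remaining calls were lost under at least 1 alternative, that of Col2a1 in FST without any 1 library other than FST replicate 1 or LIN28B replicate 2 (edgeR adjusted p up to 0.0437) and with only the conditions compared (0.147).

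**Figure D5:**
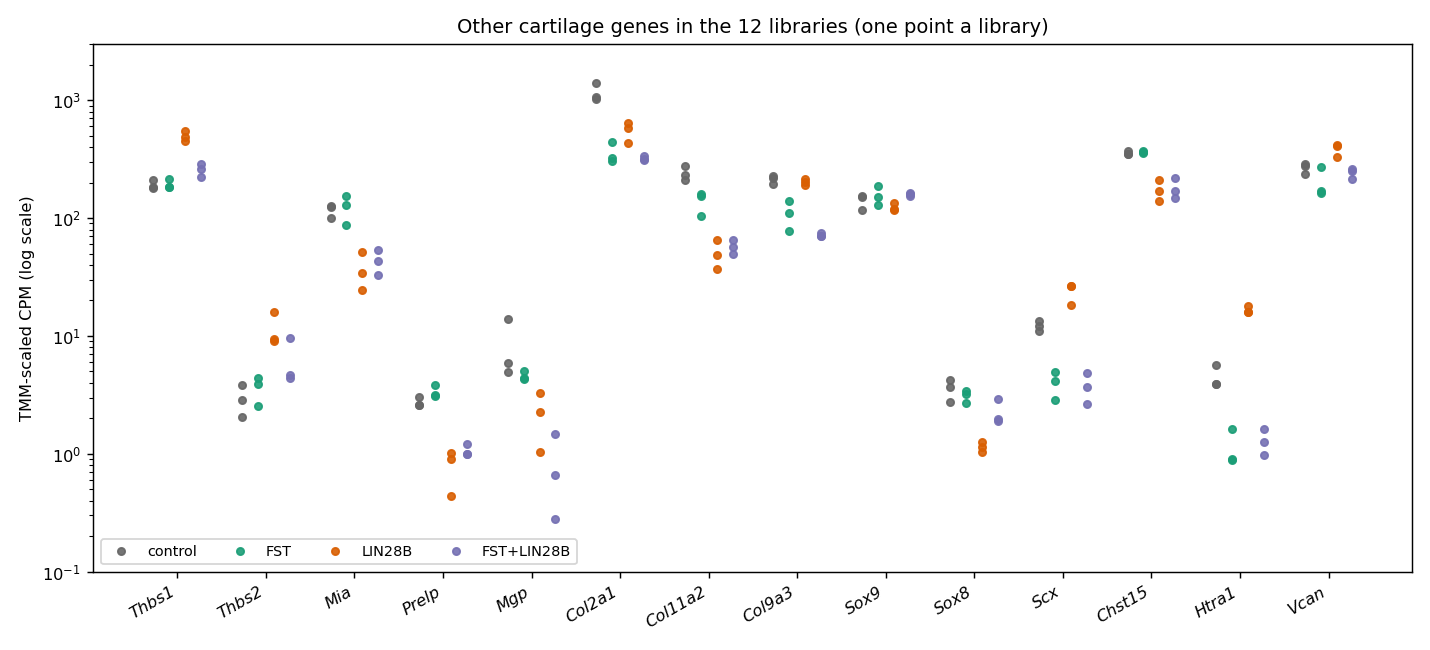
Levels of 14 other cartilage genes in TMM-scaled CPM (vertical axis, log scale), 1 point for each library, coloured by condition. Htra1 and Scx are highest in the LIN28B libraries and lower in FST and FST+LIN28B, Col11a2 is low in all libraries with LIN28B, and Sox9 stays between 117 and 186 CPM in all 12 libraries.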

How the data were processed

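Stranded total RNA libraries of 12 organoid samples were sequenced with paired reads of 50 bases. The deposited values are estimated counts per transcript, made by the authors with kallisto 0.46.1 against Ensembl mouse transcripts (GRCm38); the strand setting is not given in the sources used here. Estimated counts were summed per gene over the 116816 of 118489 transcripts matched to an annotation of that release and rounded; the 1673 unmatched transcripts, with 0.543% to 0.598% of counts, were left out. Genes were filtered (filterByExpr, minimum count 10) and tested in 1 fit of all 12 libraries, without a replicate term, with edgeR 4.0.16 (TMM, robust quasi-likelihood, R 4.3.3). The study used sleuth, which needs kallisto's resampled estimates, not used here. Tests were tried on counts with known changes first. DESeq2 1.42.0 and limma 3.58.1 on log2(TPM + 1) or log2(TPM + 0.1) were among 23 alternatives, with 1 more, protein-coding transcripts only, chosen after seeing the data.

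The 10 genes and all lists were chosen with earlier results of these data known. Genes named from the other lists are those called in any comparison, at most 6 a list, and close relatives of the 10 genes whatever their result. The likeness rule names the 2 genes with the highest Pearson r of log2(CPM + 0.5), leaving out Gm, Rik, clone, accession and mitochondrial gene names. Transcripts named by share hold at least 10% of a gene's TPM. Replicate numbers were checked for pairing by correlating deviations of libraries, with a median r of 0.033 for the same number and 0.010 for other numbers. They were not taken as pairs, though with 3 libraries a condition this check cannot exclude pairing.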

Additional observations from a re-analysis of the deposited data

Results flagged for a closer look

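Opposite directions in 2 conditions compared with the same control libraries drew attention to Ucma and Sox6. For Ucma, all FST libraries were below and all LIN28B libraries above the control libraries, at log2 fold changes of −1.49 and 1.93, and this difference between FST and LIN28B was not tested. Ucma also differed in direction between LIN28B (1.93) and FST+LIN28B (−2.30), and the direct comparison of those conditions gave −4.24 (SE 0.44, edgeR adjusted p = 0.00072). For Sox6, all LIN28B libraries were below and all FST+LIN28B libraries above control, at −0.46 and 0.42. The direct comparison gave 0.88 (SE 0.14, edgeR adjusted p = 0.0102). Without 1 library its edgeR adjusted p ranged from 0.00036, without FST replicate 2, to 0.0488.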

How the results depend on the processing

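Each result was recomputed under up to 24 alternatives. An adjusted p was obtained in 20 or 21 of them for Acan and in 22 or 23 for Comp, Matn1 and Matn3. The interaction had at most 23, as fits of only the conditions compared give none. Of the 10 genes, edgeR called 0 with FST, 2 with LIN28B and 1 with both transgenes against control, and 1 in FST+LIN28B against LIN28B. DESeq2 called 3 in LIN28B, 2 in FST+LIN28B against control and 2 against LIN28B. Of all 18780 genes it called 1585, 919 and 454 in these comparisons, against 644, 236 and 95 with edgeR. In FST it called 68, against 4 with edgeR. In LIN28B 1 was called with library size alone, with length-scaled counts and with protein-coding transcripts only. Against LIN28B 2 were called with no filter and with only the conditions compared. At an adjusted p under 0.05, 3 were called in LIN28B, 3 in FST+LIN28B against control and 2 against LIN28B. Leaving out 1 library gave 0 to 3 calls in LIN28B, 0 to 2 in FST+LIN28B against control and 1 to 2 against LIN28B, and 0 in FST, in the interaction and in transcript usage.

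With the replicate block, 1 of the 10 genes was called in LIN28B, the call of Ucma being lost (edgeR adjusted p = 0.0171), and 0 in FST+LIN28B against control, the call of Chadl being lost (0.0117). Deviations of same-numbered libraries correlated at −0.391 to 0.235 and 3 of 12 libraries correlated best with one of their own number, so the numbers were not taken as pairs. Under the block, collagens had 0 calls in FST, related matrix genes 2 in LIN28B and synthesis genes 0 in FST+LIN28B, and Hapln1 changed sign in FST (−0.069), in FST+LIN28B against LIN28B (0.036) and in the interaction (0.11).

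Counts of the other lists moved most with DESeq2, which called more of all genes than edgeR in every comparison. It called 1 regulator, 2 collagens and 1 cleavage gene in FST, 4 regulators and 2 synthesis genes in LIN28B, 5 related matrix genes, 2 regulators, 2 synthesis genes and 2 cleavage genes in FST+LIN28B, and 2 regulators, 1 synthesis gene and 2 collagens against LIN28B. At an adjusted p under 0.05, edgeR called 1 regulator and 1 cleavage gene in FST, 4 regulators in LIN28B, 4 related matrix genes, 2 regulators, 2 synthesis genes and 2 cleavage genes in FST+LIN28B, and 1 synthesis gene against LIN28B. With only the conditions compared there were 0 collagens in FST, 3 regulators and 2 synthesis genes in LIN28B, and 2 related matrix genes and 2 regulators in FST+LIN28B. With protein-coding transcripts only there were 0 cleavage genes in LIN28B and in FST+LIN28B, 2 related matrix genes and 2 regulators in FST+LIN28B, and 1 synthesis gene against LIN28B. RLE size factors and no filter each gave 2 regulators in LIN28B, and library size alone and length-scaled counts each gave 1 related matrix gene in FST+LIN28B. limma on log2(TPM + 1) called 2 collagens in FST, 0 regulators in LIN28B and 3 related matrix genes in FST+LIN28B, and on log2(TPM + 0.1) 2 collagens and 2 related matrix genes.

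Without 1 library, related matrix genes gave 1 to 5 calls in LIN28B, 0 to 1 in FST+LIN28B and 0 to 2 against LIN28B, and regulators 0 to 2, 0 to 2 and 1 to 2. Synthesis genes gave 0 to 1 in each of these, cleavage genes 0 to 1 in each comparison with control, and collagens 0 to 1 with FST, 2 to 4 with LIN28B and 3 to 5 with both transgenes.

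Signs changed only for uncalled values. They were Matn3 in FST with library size alone (−0.0071), limma on log2(TPM + 1) (−0.00024) and protein-coding transcripts only (−0.0023), and Sox5 in FST with length-scaled counts (−0.038) and limma (−0.091 and −0.098). Comp in LIN28B turned positive with length-scaled counts (0.56) and limma (0.095 and 0.33), and Hapln1 in FST negative with limma on log2(TPM + 0.1) (−0.057). In the interaction they were Sox5 with library size alone (−0.022) and at least 50 counts in 3 libraries (−0.012), Acan with limma (−0.0077 and −0.030) and Hapln1 with limma on log2(TPM + 0.1) (0.032). Without 1 library, FST against control ranged over −0.21 to 0.16 for Matn1, −0.34 to 0.73 for Matn3, −1.09 to 0.56 for Hapln1, −0.23 to 0.21 for Sox5, −0.0041 to 0.31 for Sox6 and −0.0077 to 0.48 for Cnmd. Comp in LIN28B ranged over −0.28 to 0.15. FST+LIN28B against LIN28B ranged over −0.043 to 0.23 for Chadl, −0.83 to 0.34 for Acan and −0.23 to 0.14 for Hapln1, and the interaction over −0.28 to 0.92 for Acan, −0.57 to 1.07 for Hapln1 and −0.13 to 0.32 for Sox5. The cause of these shifts was not tested. Depth limits Acan most, with 1 to 21 counts a library.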
